A study of Mus musculus with 6 samples.

Results

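The miR-30 family was followed in mouse serum sequenced as 6 libraries, with 2 libraries from each of 3 commercial small RNA kits. The members were chosen by name and not by their counts: the 5p arms miR-30a-5p (MIMAT0000128), miR-30b-5p (MIMAT0000130), miR-30c-5p (MIMAT0000514), miR-30d-5p (MIMAT0000515) and miR-30e-5p (MIMAT0000248), and the 3p arms miR-30a-3p (MIMAT0000129) and miR-30e-3p (MIMAT0000249). These are 7 members, while 788 miRNAs were listed in at least 1 library. Of the 7 members, 6 were listed in every library and miR-30e-3p in none. All serum came from healthy male and female 129/SVj mice, a laboratory strain, aged 2 to 9 months, and no group received a treatment other than the sedation that all mice shared. The labels set the groups apart by kit and number the sera 1 and 2 within each kit. Per the study's methods, the kits were NEBNext Multiplex (New England Biolabs), TruSeq v2 (Illumina) and TailorMix v2 (Seqmatic), with 2 libraries each. The study's methods state that RNA for the kit comparison came from individual mice and that libraries were made in duplicate, but the mouse behind each library is not given. All p-values therefore measure the spread between these libraries, which may be technical. The comparison asks how the choice of kit changes what is counted in the same kind of sample.

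A miRNA is cut from a hairpin precursor. The strand from one side of the stem is called the 5p arm and the strand from the other side the 3p arm, and usually one of them is loaded into an Argonaute protein while the other is largely degraded. The loaded miRNA finds its messenger RNAs mainly through its seed, bases 2 to 8. The 5p members of the miR-30 family share one seed and can therefore repress overlapping sets of messenger RNAs; they are widely expressed in mammalian tissues and are known for roles in kidney, heart and epithelial cells. Library kits attach adaptors to both ends of each RNA with ligases, and the efficiency of that step is known to depend on the sequence and structure of the RNA ends.

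The mature sequences, from the RefSeq table for GRCm38.p6, were available for 5 of the 7 members and are shown to set these apart. Whether sequence goes with the counts was not tested. The sequences are written 5′ to 3′ with the seed in capitals.
miR-30a-5p: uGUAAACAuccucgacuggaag
miR-30e-5p: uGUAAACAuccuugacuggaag
miR-30c-5p: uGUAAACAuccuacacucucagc
miR-30a-3p: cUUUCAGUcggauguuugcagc
miR-30e-3p: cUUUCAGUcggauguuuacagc
miR-30a-5p and miR-30e-5p, both 22 bases long, differ at 1 position, C13U, counted from 1 at the 5′ end with the base of miR-30a-5p first, so that they share the first 12 and the last 9 bases. miR-30c-5p, 23 bases long, shares the first 12 bases with miR-30a-5p and differs at 5 of the 22 positions compared, C13A, G14C, G18C, G19U and A20C. It ends in a C, while miR-30a-5p and miR-30e-5p end in a G. The 2 members from the 3p side differ at 1 position, G18A, with the base of miR-30a-3p first. Among 1679 mature mouse names in the table, the seed GUAAACA was carried by 4, which are the 3 members shown and miR-384-5p, and the seed UUUCAGU by 2, miR-30a-3p and miR-30e-3p. No sequence was available for miR-30b-5p and miR-30d-5p, so that both are left out of these counts and given by name only.

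The 7 members come from 6 hairpin genes in 3 pairs of neighbours (coordinates in GRCm38). On chromosome 1, Mir30a (chr1:23272269-23272339, plus strand, in no other annotated gene) lies 19361 bases from Mir30c-2 (chr1:23291701-23291784, within an exon of the long noncoding RNA Gm27028). On chromosome 4, Mir30c-1 (chr4:120769534-120769622) and Mir30e (chr4:120772606-120772697) lie 2983 bases apart in an intron of Nfyc, which encodes a subunit of the transcription factor NF-Y. On chromosome 15, Mir30b (chr15:68337415-68337510, in an exon of the noncoding transcript Gm26621) and Mir30d (chr15:68341208-68341289, in exons of the noncoding transcripts Gm20732 and Gm37296) lie 3697 bases apart. The mature miR-30c-5p sequence is the same from its 2 genes, so that its reads cannot be assigned to one of them. The hairpins of miR-30a and miR-30e are printed with both mature arms in capitals, because the 3p arm of the first was counted in every library and that of the second in none.
Mir30a: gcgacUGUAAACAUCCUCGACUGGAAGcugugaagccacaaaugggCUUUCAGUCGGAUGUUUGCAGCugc
Mir30e: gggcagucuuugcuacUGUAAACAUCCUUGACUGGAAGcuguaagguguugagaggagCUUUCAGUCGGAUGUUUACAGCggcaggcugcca

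The libraries held 165139 to 351758 reads on miRNAs, and 367 to 540 miRNAs were listed per library. Levels are given as a share of a library's miRNA reads. No scaling by length was made, and no calibration of reads to molecules was used. How the study counted reads that fit several places, as those of miR-30c-5p do, is not given in the sources used here. Wilson 95% intervals cover counting error only, since the reads carry no molecular identifiers. Over the 6 listed members, the 2 libraries of a kit differed by more than counting noise for NEBNext and TruSeq (chi-square per degree of freedom 5.52 and 5.73) but not for TailorMix (0.937, chi-square test p = 0.455). Over all miRNAs the chi-square was 576 on 267 degrees of freedom for NEBNext, 3212 on 214 for TruSeq and 397 on 250 for TailorMix, above counting noise in each kit and farthest above it for TruSeq, and all pairs were kept as 2 libraries, as the labels list them. miR-16-5p, a miRNA abundant in blood cells, was listed in 6 of 6 libraries at 0.374% to 5.14% of miRNA reads. It was the only 1 of 6 chosen blood and tissue markers that could be matched to an identifier, and alone it cannot check the sample type.

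The family took a larger share of the miRNA reads with NEBNext than with the other kits. The 7 members together held 6.20% and 6.22% of miRNA reads when NEBNext was used. TruSeq gave 2.66% and 2.85%, and TailorMix 3.08% and 3.06%. The mean of 6.21% ± 0.0118 (SD, n = 2) with NEBNext was 2.26-fold that of TruSeq (2.75% ± 0.132) and 2.02-fold that of TailorMix (3.07% ± 0.0124), and these values did not overlap between NEBNext and either other kit. No test was made of a sum over chosen members. The difference depends on the scaling of the libraries: TruSeq minus NEBNext was -1.17 on the log2 scale by total miRNA reads, -0.11 with TMM, -0.050 with RLE or DESeq2 size factors and 0.80 with upper-quartile factors, so that the family was then higher with TruSeq. TailorMix minus NEBNext kept its direction, from -1.02 by total miRNA reads to -0.26 with upper-quartile factors. The order also depends on what the reads are set against: as a share of all annotated small RNA reads, most of which were not miRNAs, the family was lowest with NEBNext (0.0568%), intermediate with TruSeq (0.0829%) and highest with TailorMix (0.115%).

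miR-30d-5p was the most abundant member with NEBNext and TailorMix. It had 6291 and 4657 counts (2.80% and 2.82% of miRNA reads) for NEBNext, 1505 and 1284 counts (0.428% and 0.455%) for TruSeq, and 2795 and 2767 counts (1.44% and 1.41%) for TailorMix. Its share was thus highest with NEBNext and lowest with TruSeq. Among all miRNAs of a library it ranked 10 and 11 with NEBNext, 29 and 30 with TruSeq, and 16 in both TailorMix libraries.

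miR-30a-5p was the most abundant member with TruSeq. It had 4141 and 3177 counts (1.84% and 1.92% of miRNA reads) for NEBNext, 3966 and 3459 counts (1.13% and 1.23%) for TruSeq, and 1157 and 1202 counts (0.598% and 0.610%) for TailorMix. miR-30e-5p followed the same order of kits at a lower level, with 2265 and 1510 counts (1.01% and 0.914%) for NEBNext, 1676 and 1539 counts (0.476% and 0.546%) for TruSeq, and 550 and 529 counts (0.284% and 0.269%) for TailorMix. Both shares were highest for NEBNext and lowest for TailorMix, without overlap between kits.

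miR-30c-5p ran in the opposite order. It had 661 and 415 counts (0.294% and 0.251% of miRNA reads) for NEBNext, 1382 and 1102 counts (0.393% and 0.391%) for TruSeq, and 1375 and 1430 counts (0.711% and 0.726%) for TailorMix. miR-30b-5p was the lowest 5p member in all 6 libraries and the one with the widest range. It had 27 and 16 counts for NEBNext (0.0120% with a 95% interval of 0.00825% to 0.0175%, and 0.00969% with 0.00596% to 0.0157%), 378 and 366 counts (0.107% and 0.130%) for TruSeq, and 60 and 79 counts (0.0310% and 0.0401%) for TailorMix. Its rank in a library ran from 48 and 57 with TruSeq to 162 and 171 with NEBNext.

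miR-30a-3p, the strand opposite miR-30a-5p in the same hairpin, was counted at a low level with TailorMix. It had 559 and 493 counts (0.249% and 0.299% of miRNA reads) for NEBNext, 449 and 278 counts (0.128% and 0.0986%) for TruSeq, and 22 and 23 counts (0.0114% and 0.0117%) for TailorMix. The shares of all 6 listed members lay apart between all 3 kits, which was also true of 63.6% of the 360 miRNAs that reached 4 counts in 2 or more libraries.

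**Figure D1:**
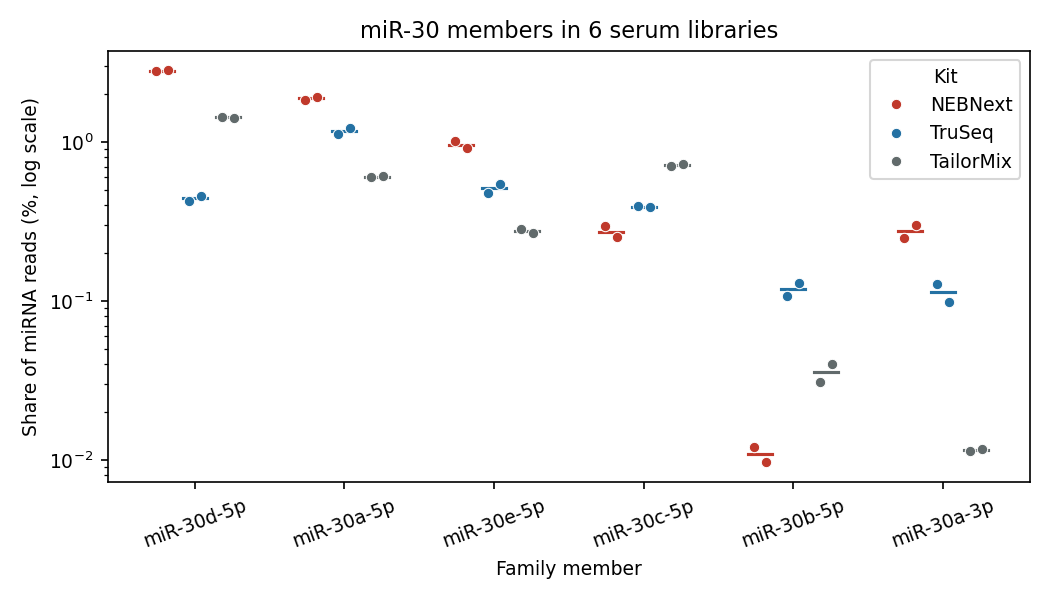
Share of each library's miRNA reads (%, log scale) for the 6 listed miR-30 members, 2 libraries per kit (points) with the mean of each kit (lines). miR-30d-5p, miR-30a-5p, miR-30e-5p and miR-30a-3p were highest with NEBNext, miR-30c-5p with TailorMix and miR-30b-5p with TruSeq, where it reached 0.107% and 0.130% against 0.0120% and 0.00969% with NEBNext.

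The order of the 5p members was the same in both libraries of a kit and different in each kit. With NEBNext it was miR-30d-5p, miR-30a-5p, miR-30e-5p, miR-30c-5p and miR-30b-5p, from highest to lowest. With TruSeq it was miR-30a-5p, miR-30e-5p, miR-30d-5p, miR-30c-5p and miR-30b-5p, and the neighbours miR-30e-5p, miR-30d-5p and miR-30c-5p lay close together, at 0.511% ± 0.0489, 0.442% ± 0.0193 and 0.392% ± 0.00156 of miRNA reads (SD, n = 2), without overlap. Neighbours overlapped only where the 3p arm was one of them: miR-30c-5p and miR-30a-3p with NEBNext (0.273% ± 0.0302 and 0.274% ± 0.0353), and miR-30b-5p and miR-30a-3p with TruSeq (0.119% ± 0.0158 and 0.113% ± 0.0206), did not differ beyond their spread. With TailorMix it was miR-30d-5p, miR-30c-5p, miR-30a-5p, miR-30e-5p and miR-30b-5p. Of the reads on the 5 members from the 5p side, miR-30d-5p held 47.3% ± 0.454 with NEBNext, 16.7% ± 0.233 with TruSeq and 46.6% ± 0.718 with TailorMix. miR-30a-5p held 31.7% ± 1.11, 44.6% ± 0.0746 and 19.7% ± 0.369, in the same order of kits.

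The 5p members were also summed in 2 subgroups, miR-30a/d/e and miR-30b/c, which were counted in different proportions. No sequence of miR-30b-5p or miR-30d-5p was available to check this grouping. Members of a subgroup did not all follow the same order of kits. miR-30b-5p and miR-30c-5p together held 4.77% ± 0.517 of the 5p counts for NEBNext, 19.4% ± 0.578 for TruSeq and 24.6% ± 0.672 for TailorMix (SD, n = 2). As a share of miRNA reads, miR-30a/d/e-5p was highest with NEBNext (5.65% ± 0.00830, against 2.13% ± 0.138 with TruSeq and 2.31% ± 0.0301 with TailorMix), whereas miR-30b/c-5p was lowest there (0.283% ± 0.0318, against 0.510% ± 0.0142 and 0.754% ± 0.0174). Nearly all of the second subgroup was miR-30c-5p with NEBNext (4.59% ± 0.490 of the 5p reads against 0.183% ± 0.0269 for miR-30b-5p) and with TailorMix (23.5% ± 0.457 against 1.16% ± 0.215), and miR-30b-5p took its largest part with TruSeq (4.48% ± 0.339 against 14.9% ± 0.917 for miR-30c-5p).

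**Figure D2:**
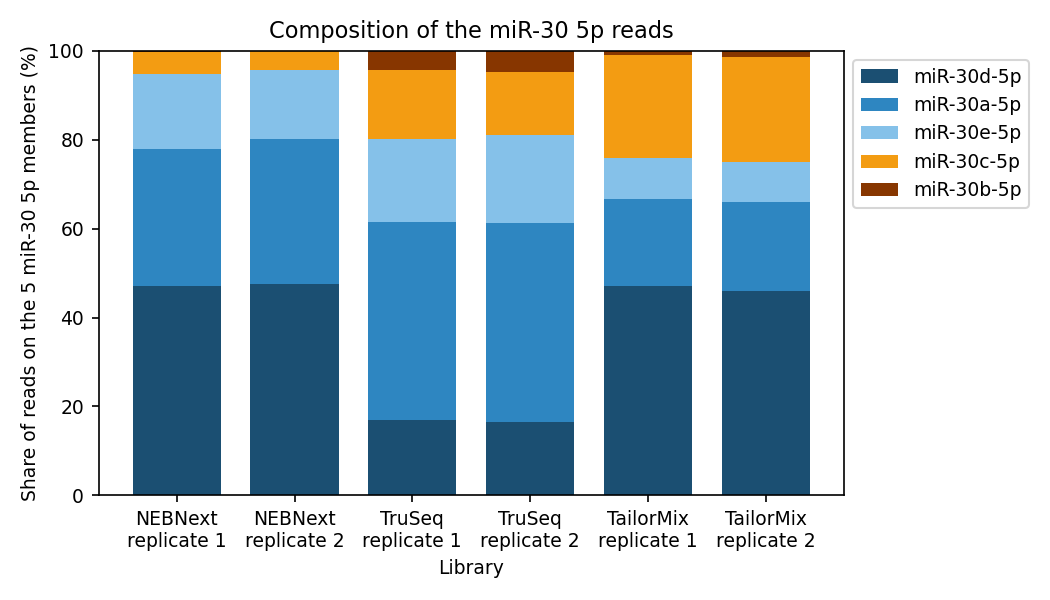
Share (%) of the reads on the 5 members from the 5p side that each member held, as stacked bars, 1 bar per library. The 2 bars of a kit are alike, the part of miR-30d-5p is smaller with TruSeq (16.7% on average) than with NEBNext (47.3%) or TailorMix (46.6%), and miR-30c-5p and miR-30b-5p together are smallest with NEBNext (4.77%).

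A ratio of 2 members within a library does not depend on how libraries are scaled to each other. miR-30a-5p over miR-30e-5p was the steadiest of the 10 pairs of 5p members. For NEBNext it was 1.83 and 2.10, for TruSeq 2.37 and 2.25, and for TailorMix 2.10 and 2.27, so that the highest value was 1.29-fold the lowest. TailorMix overlapped with TruSeq and barely with NEBNext, while NEBNext and TruSeq lay apart. Among 4950 pairs of the 100 miRNAs with a mean of at least 100 counts that were listed in all libraries, 4 pairs (0.0808%), this one included, had a range as narrow; the pair was singled out here as the steadiest after its values were seen. The other 9 pairs lay apart between all 3 kits, as did 88.3% of the 4950 pairs.

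All other pairs of 5p members ranged at least 6.27-fold over the libraries. miR-30a-5p over miR-30d-5p was 0.658 and 0.682 for NEBNext, 2.64 and 2.69 for TruSeq, and 0.414 and 0.434 for TailorMix. These values turn around between kits: miR-30d-5p had the more reads with NEBNext and TailorMix, and miR-30a-5p with TruSeq. miR-30a-5p over miR-30c-5p was on average 6.96 ± 0.983 for NEBNext, 3.00 ± 0.190 for TruSeq and 0.841 ± 0.000633 for TailorMix (SD, n = 2), a 9.11-fold range over the libraries. The widest range was that of miR-30b-5p over miR-30d-5p, neighbours on chromosome 15, which was 0.00429 and 0.00344 for NEBNext, 0.251 and 0.285 for TruSeq, and 0.0215 and 0.0286 for TailorMix, or 83.0-fold from lowest to highest. The lowest of these values rests on 16 counts of miR-30b-5p. The median range of the 10 pairs was 9.47-fold, against 46.6-fold for the 4950 pairs.

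**Figure D3:**
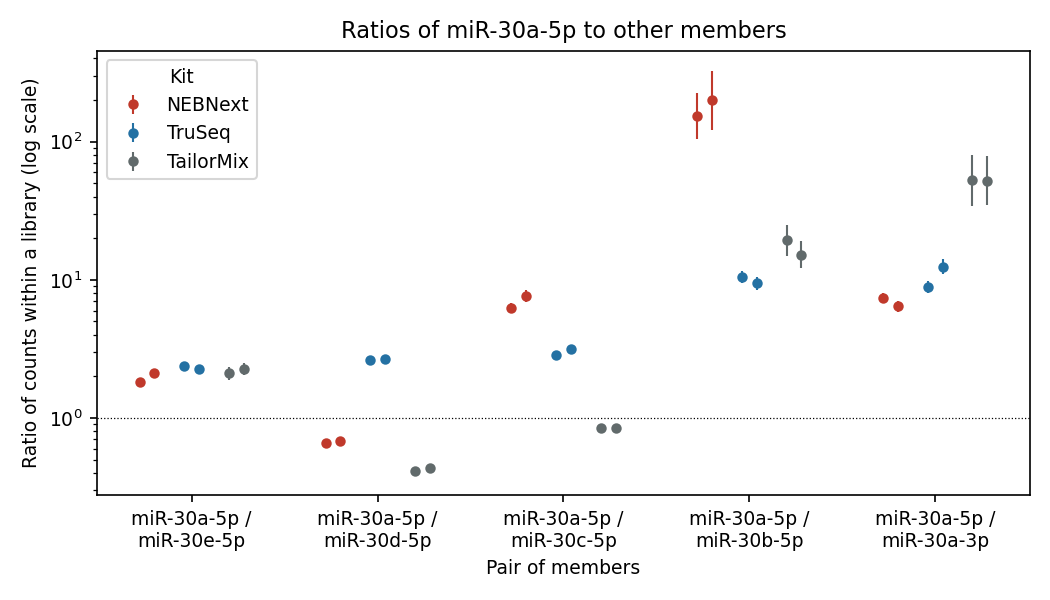
Counts of miR-30a-5p divided by those of another member in the same library (log scale), 1 point per library coloured by kit, with 95% intervals from counting error. The ratio to miR-30e-5p stays between 1.83 and 2.37 in all 6 libraries, while the ratios to miR-30d-5p, miR-30c-5p, miR-30b-5p and miR-30a-3p separate the kits. So did 88.3% of 4950 pairs of abundant miRNAs.

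The ratio between the arms of the miR-30a hairpin was higher with TailorMix than with the other kits. Counts of miR-30a-5p divided by those of miR-30a-3p gave 7.41 and 6.44 for NEBNext, 8.83 and 12.4 for TruSeq, and 52.6 and 52.3 for TailorMix. The values did not overlap between kits, as was true of 88.3% of the 4950 pairs of miRNAs above. The arm ratio ranged 8.16-fold over the libraries, against a median range of 46.6-fold for those pairs. The mean with TailorMix (52.4 ± 0.233, SD, n = 2) was 7.59-fold that with NEBNext (6.93 ± 0.681) as a ratio of geometric means. That with TruSeq (10.6 ± 2.55) was 1.52-fold that with NEBNext. The F ratio of log2(5p/3p) between kits was tested by exact permutation, two-sided, and gave p = 0.0667, which is the smallest p that the 15 groupings of 6 libraries into 3 pairs allow, so that this design cannot reach the 0.05 threshold. The TailorMix ratios rest on 22 and 23 counts of the 3p arm, and their counting intervals were 34.5 to 80.2 and 34.6 to 79.0. miR-30a-3p made up 4.41% ± 0.560, 4.13% ± 0.945 and 0.375% ± 0.00865 of the family reads with NEBNext, TruSeq and TailorMix.

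miR-30e-3p had 0 counts in all 6 libraries, although miR-30e-5p was among the 46 most abundant miRNAs of every library. A count of 0 allows a share of up to 0.000853% to 0.00182% of miRNA reads, depending on the library (3 counts of its total). Set against this bound of 3 counts, the 5p arm was 755-fold and 503-fold higher with NEBNext, 559-fold and 513-fold with TruSeq, and 183-fold and 176-fold with TailorMix. These folds cover counting error only. Reads were assigned to miRNAs by genomic position after mapping without mismatches. At the Mir30e locus the reference table also places miR-30f on the other strand, with 19 bases of overlap with the 22 bases of miR-30e-3p, and how reads on overlapping annotations were assigned is not given in the sources used here. Whether this bears on the 0 counts was not tested, and the ratio of the arms of miR-30e was therefore not compared between kits.

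Members were then tested between kits in the fit over all 360 miRNAs that passed the filter, which the 6 listed members did (edgeR quasi-likelihood test, TMM scaling, Benjamini-Hochberg adjusted p under 0.05). TMM scaling assumes that most miRNAs do not change, and a log2 fold change here is relative to that scaling. The fit itself called 247 of the 360 miRNAs for TruSeq against NEBNext, 279 for TailorMix against NEBNext and 254 for TailorMix against TruSeq. Most tested miRNAs thus passed in each contrast, so that the calls do not meet this assumption. With TruSeq against NEBNext, 3 members were higher, where 26.1% of the tested miRNAs were, and 1 was lower, where 42.5% were. miR-30b-5p was higher by 4.49 on the log2 scale (SE 0.21, edgeR adjusted p = 2.83e-19) and miR-30c-5p by 1.59 (SE 0.12, edgeR adjusted p = 7.08e-14), and miR-30d-5p fell by 1.60 (SE 0.099, edgeR adjusted p = 3.47e-16). These 3 kept their direction under all 5 scalings tried, of which RLE and DESeq2 size factors gave nearly the same values. miR-30a-5p was higher by 0.39 (SE 0.097, edgeR adjusted p = 0.000713), but its sign depends on the scaling: it ran from -0.68 with total miRNA reads to 1.30 with upper-quartile factors. It was 0.070 without NEBNext replicate 1 (edgeR adjusted p = 0.662) and 0.27 without NEBNext replicate 2 (edgeR adjusted p = 0.0594), neither of which passed, nor did it without a filter on low counts (0.34, edgeR adjusted p = 0.354). miR-30e-5p (0.15, SE 0.11, edgeR adjusted p = 0.219) and miR-30a-3p (-0.19, SE 0.15, edgeR adjusted p = 0.265) did not pass with TMM. Both passed, with opposite signs, at total miRNA reads and at upper-quartile factors: miR-30e-5p was -0.91 (edgeR adjusted p = 5.73e-19) and 1.06 (edgeR adjusted p = 2.28e-22), and miR-30a-3p was -1.26 (edgeR adjusted p = 8.53e-23) and 0.70 (edgeR adjusted p = 1.24e-07). With TMM, miR-30a-3p also passed without NEBNext replicate 1 (-0.61, edgeR adjusted p = 0.00711) and without TruSeq replicate 1 (-0.50, edgeR adjusted p = 0.0242), and miR-30e-5p without TailorMix replicate 1 (0.26, edgeR adjusted p = 0.0226) and without TailorMix replicate 2 (0.35, edgeR adjusted p = 0.00942). The median of all tested miRNAs in this contrast was -0.54 with TMM, -1.61 with total miRNA reads and 0.061 with upper-quartile factors, against 0.27 for the members with TMM.

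With TailorMix against NEBNext, all 6 listed members passed the test, 2 higher (39.2% of the tested miRNAs) and 4 lower (38.3%), and all 6 kept their direction under the 5 scalings. miR-30b-5p was higher by 2.34 on the log2 scale (SE 0.26, edgeR adjusted p = 1.12e-09) and miR-30c-5p by 2.05 (SE 0.12, edgeR adjusted p = 1.12e-16). miR-30a-3p fell by 3.91 (SE 0.22, edgeR adjusted p = 2.92e-17), more than miR-30a-5p of the same hairpin, which fell by 0.99 (SE 0.10, edgeR adjusted p = 1.04e-10), and miR-30e-5p, which fell by 1.15 (SE 0.11, edgeR adjusted p = 8.60e-11). miR-30d-5p fell by 0.33 (SE 0.096, edgeR adjusted p = 0.00307), and without TailorMix replicate 1 or 2 its change was -0.077 or -0.20 and did not pass (edgeR adjusted p = 0.611 and 0.235). The median was -0.24 for all tested miRNAs and -0.66 for the members.

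With TailorMix against TruSeq, all 6 listed members passed again, 2 higher (41.7% of the tested miRNAs) and 4 lower (28.9%). miR-30d-5p was higher by 1.28 on the log2 scale (SE 0.099, edgeR adjusted p = 1.73e-13). miR-30a-3p fell by 3.72 (SE 0.22, edgeR adjusted p = 1.72e-16), miR-30b-5p by 2.15 (SE 0.18, edgeR adjusted p = 8.09e-13), miR-30a-5p by 1.38 (SE 0.10, edgeR adjusted p = 3.30e-14) and miR-30e-5p by 1.30 (SE 0.12, edgeR adjusted p = 4.97e-12). These 5 members kept their direction under the 5 scalings. miR-30c-5p was higher by 0.46 (SE 0.11, edgeR adjusted p = 0.000665), but was lower, at -0.34, with upper-quartile factors, and did not pass without a filter on low counts (0.27, edgeR adjusted p = 0.514). The median was 0.52 for all tested miRNAs and -1.34 for the members. The 3 contrasts share their libraries, so that each pair of them has a kit in common.

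**Figure D4:**
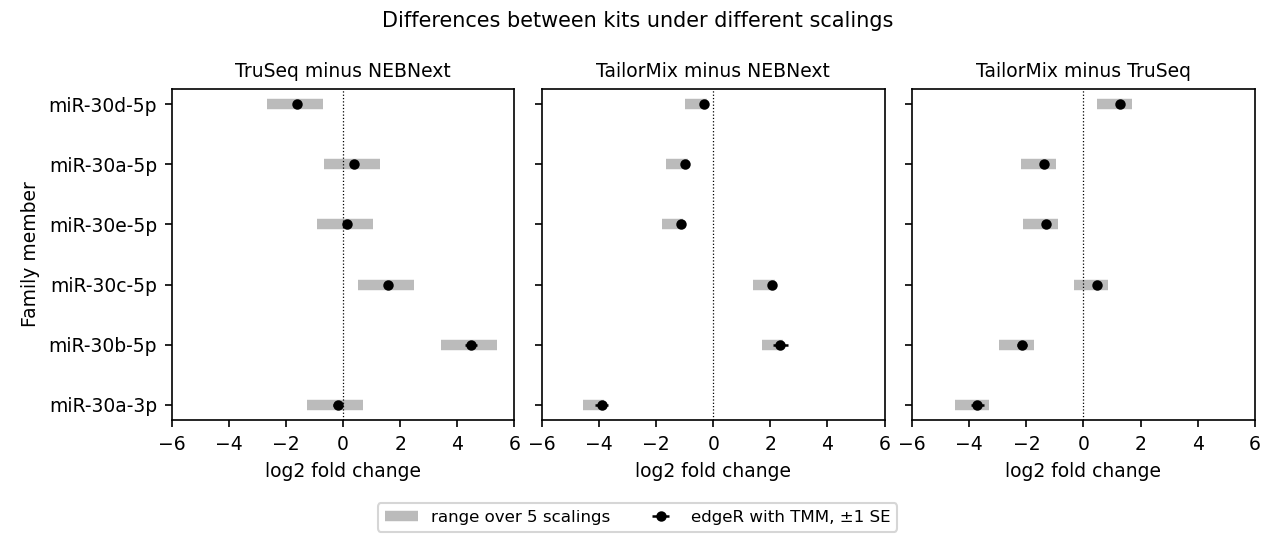
log2 fold change of the 6 listed members between kits from edgeR with TMM scaling (points, bars ±1 SE worked back from the F statistic) and its range over 5 scalings of the libraries (grey). The range crosses 0 for miR-30a-5p, miR-30e-5p and miR-30a-3p with TruSeq minus NEBNext and for miR-30c-5p with TailorMix minus TruSeq.

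Outside the family, the miRNAs whose share of miRNA reads moved most like the sum of the 5p members were ranked over 96 candidates with a mean of at least 100 counts. The measure was the root mean square difference in centred log2 share over the 6 libraries, in which every miRNA shares the library's depth and kit with the members. The closest was MIMAT0000122, with a difference of 0.150 on the log2 scale. Its share was 2.84% and 2.82% for NEBNext, 1.49% and 1.23% for TruSeq, and 1.67% and 1.76% for TailorMix. The next were MIMAT0003782 (0.422) and MIMAT0000533 (0.434). These 3 are given by identifier, as the files list them.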

How the data were processed

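Small RNA counts of 6 serum libraries were used. Per the study's methods, the authors removed adaptors with cutadapt 1.8.1 and kept reads of at least 15 bp in which an adaptor was found and 80% of bases reached quality 20 (FASTX-Toolkit 0.0.14). They mapped these with Bowtie 1.1.2, allowing no mismatch, and assigned them by position to miRBase release 20 and Ensembl release 84 (GRCm38). The deposited counts are reads per miRNA identifier, not normalized, and an unlisted miRNA was taken as 0. Of the second list in each library, other small RNAs, only the total was used.

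Members and lists were chosen with earlier results of these data known. Shares, Wilson intervals and ratios were computed in Python 3.11.15 (scipy 1.17.1, numpy 2.4.6, pandas 2.3.3). Kits were compared with edgeR 4.0.16 (R 4.3.3; glmQLFit, glmQLFTest, TMM, all 6 libraries, at least 4 counts in at least 2 libraries, Benjamini-Hochberg over all miRNAs tested), with DESeq2 1.42.0, other scalings and filters, a replicate block and left-out libraries as alternatives. The SE of an edgeR fold change was worked back from the F statistic of its test, so it adds nothing independent of the p-value. The fit was tested on simulated counts in which most miRNAs did not change between kits, unlike in the calls of the fit to these data. The named miRNAs are the 7 members, the 3 most like them in pattern and miR-16-5p. The 5 other markers, the other 3p arms of the hairpins, miR-384-5p and the arm ratios of other hairpins were not analysed here, because identifiers were paired with names only for the members and miR-16-5p.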

Additional observations from a re-analysis of the deposited data

How the results depend on the processing

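Results between libraries depended on the scaling. As a share of annotated reads the family held 0.0568%, 0.0829% and 0.115% (NEBNext, TruSeq, TailorMix), and without the 3 miRNAs that led the kits in the denominator 7.22%, 3.56% and 3.74% of miRNA reads. The log2 difference of the summed family was -1.17, -1.02 and 0.16 by total miRNA reads for TruSeq minus NEBNext, TailorMix minus NEBNext and TailorMix minus TruSeq. With scalings chosen after seeing the data it was -0.11, -0.36 and -0.26 with TMM, -0.050, -0.38 and -0.33 with both RLE and DESeq2 size factors, and 0.80, -0.26 and -1.06 with upper-quartile factors. The TailorMix ratio of the miR-30a arms was 50.2 with 1 count added to each arm.

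Of 252 alternative fold changes of members, 231 kept their sign and side of the threshold, 7 passed it newly, 6 no longer passed and 8 changed sign. For TruSeq minus NEBNext, the sign changed with total miRNA reads for miR-30a-5p (-0.68) and miR-30e-5p (-0.91), and for miR-30a-3p with upper-quartile factors (0.70) and in the fit of 4 libraries (0.030). With single libraries left out, miR-30e-5p ran from -0.062 to 0.35 in this contrast. For TailorMix minus TruSeq, the sign changed for miR-30c-5p with upper-quartile factors (-0.34). The cause was not tested. The number of miRNAs called stayed within 1.5 times under all alternatives (DESeq2 called 175, 196 and 204, against 247, 279 and 254), but the split did not: for TruSeq against NEBNext it was 94 higher and 153 lower with TMM, 61 and 191 with total reads, and 140 and 122 with upper-quartile factors, and for TailorMix against TruSeq 150 and 104, 175 and 89, and 117 and 136.

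The labels do not say whether the numbers 1 and 2 mark the same serum in each kit. Same-numbered libraries gave no sign of pairing, with correlations of their deviations of 0.000826, -0.059 and 0.13 over 102 miRNAs. These correlations do not exclude that the libraries were paired. With a replicate block, 232, 250 and 235 miRNAs and 4, 6 and 6 members were called. Arm totals with the 3p arms outside the 7 members were not run. Low counts of miR-30b-5p with NEBNext and of miR-30a-3p with TailorMix limit their precision.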
